A study of Mus musculus with 6 samples.

Results

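Of the 16763 genes in the deposited table, 10 were taken by symbol as output and negative-feedback genes of the circadian clock: Per1, Per2, Per3, Cry1, Cry2, Ciart, Nr1d1, Nr1d2, Dbp and Tef. All 10 were present, and all 10 were among the 12891 genes that passed the filter on low counts. RNA had been sequenced from breast tumors that 4T1 cells, a mammary carcinoma line, formed in BALB/c mice recorded as male. A model group of 3 libraries came from mice that carried such tumors without the test agent, and a DMDD liposome group of 3 libraries from tumor-bearing mice given DMDD in lipid vesicles. The labels do not say which mouse gave which library, nor the animals' age, the dose or the hour at which tumors were taken. The p-values therefore reflect the spread among these libraries, part or all of which may be technical. Rats are named in the sample descriptions, whereas the strain, the organism given and the gene symbols belong to the mouse.

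The clock is a feedback loop of transcription that repeats daily in most cells. The activators CLOCK and BMAL1 (encoded by Arntl) bind DNA elements called E-boxes and switch on the Per and Cry genes, whose proteins return to the nucleus and inhibit them. The same activators drive Nr1d1 and Nr1d2, which encode the REV-ERB repressors of Arntl, and Dbp, a transcription factor of the PAR bZIP family to which Tef also belongs. Members of that family bind D-box elements, which are found in the Per genes among others. Transcripts of Dbp, Nr1d1, Ciart and the Per genes swing widely over the day in many mouse tissues, which is why they are read as a check on when tissues were collected, while Cry1 peaks later in the cycle.

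Promoter windows of 300 bases were held for 9 of the 10 genes (11 windows, RefSeq, build GRCm38.p6). The stretches below are shown because they hold letters that match clock elements. Capitals mark matches, found on both strands, to the E-box CACGTG, its variant CACGTT, which reads as AACGTG on the opposite strand, or the D-box (TTATGTAA, TTATGCAA or TTACGTAA), and positions are counted from the transcript start at 0. Ciart had 3 E-boxes, at -116, -58 and -44, within chr3:95882257-95882354 (minus strand). Per3 had 2 D-boxes, at -205 and -158, within chr4:151044806-151044880 (minus strand). Per1 had an E-box at -166 and a D-box at -24, within chr11:69098773-69098942 (plus strand). Cry1 had the variant at -79 and an E-box at -60, within chr10:85185099-85185143 (minus strand). Tef had an E-box in each of its 2 windows, of which that at -138 lies within chr15:81811266-81811291 (plus strand). Nr1d1 had the variant at -28, within chr11:98775390-98775415 (minus strand).
Ciart: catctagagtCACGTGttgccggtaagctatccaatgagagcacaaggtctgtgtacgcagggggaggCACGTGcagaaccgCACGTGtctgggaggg
Per3: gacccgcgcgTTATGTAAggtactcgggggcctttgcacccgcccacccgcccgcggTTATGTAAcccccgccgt
Per1: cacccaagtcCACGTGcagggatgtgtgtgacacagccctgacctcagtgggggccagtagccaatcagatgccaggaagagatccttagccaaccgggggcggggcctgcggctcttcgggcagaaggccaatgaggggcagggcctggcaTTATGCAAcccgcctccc
Cry1: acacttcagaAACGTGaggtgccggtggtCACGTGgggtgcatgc
Tef: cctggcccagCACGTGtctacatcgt
Nr1d1: cacagatctcAACGTGccggctgctg

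The E-box was in 7.15% of all 32851 promoter windows of that length and in 5 of the 11 windows of the 9 genes. Those 5 belonged to 4 genes (Per1, Tef, Ciart and Cry1). The variant was in 4.68% of all windows and in 3 of the 11 (of Nr1d1, Cry1 and Cry2). The D-box was in 1.78% of all windows and in 2 of the 11 (of Per1 and Per3). No window of the 9 genes held the ROR element core TAGGTCA or the cAMP response element TGACGTCA, which were in 2.61% and 1.79% of all windows. The windows of Dbp and Nr1d2 held no match to any of these elements. A match is a description of letters, and binding was not measured in these samples.

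None of the 10 genes passed the threshold between the groups by edgeR's quasi-likelihood test (adjusted p under 0.05 over all tested genes). Over all 12891 genes that test called 0%, with 986 genes (7.65%) at an unadjusted p under 0.05, where the clock genes numbered 0 of 10. In DMDD liposome against model, 3 of the 10 had a positive log2 fold change (Per2, Nr1d2 and Dbp) and 7 a negative one, with a median of -0.14 beside 0.01 over all tested genes. Fold changes ran from 0.553 for Ciart to 1.58 for Per2. The authors' deposited table also called 0 of the 10, against 0.346% of its genes, and its smallest adjusted p among them was 0.661, for Per2. DESeq2 called 0 of the 10, against 0.408% of the genes it adjusted.

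Per1, which encodes a repressor of CLOCK and BMAL1 and is also induced acutely by many hormones and stimuli, measured 51.5, 55.3 and 53.4 CPM (read counts relative to the library total, scaled by TMM) in model replicates 1 to 3. In DMDD liposome replicates 1 to 3 Per1 measured 45.4, 67.8 and 44.2 CPM. The model libraries thus lay close together and inside the range of the other group, whose second replicate was the highest of the 6. The log2 fold change was -0.03 ± 0.18 (SE, adjusted p = 0.981), and its 95% interval ran from -0.44 to 0.38.

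Per2 encodes a second such repressor and had the largest positive difference of the 10. Per2 measured 11.0, 5.67 and 11.6 CPM in the model libraries and 10.9, 14.4 and 19.4 CPM in the DMDD liposome libraries. Model replicate 2, with 88 counts, was the lowest and DMDD liposome replicate 3, with 285, the highest, while DMDD liposome replicate 1 lay below model replicates 1 and 3, so the groups overlapped. In edgeR's fit the log2 fold change was 0.66 ± 0.33 (adjusted p = 0.666), with a 95% interval from -0.10 to 1.42. It was 0.39 without model replicate 2 and 0.42 without DMDD liposome replicate 3.

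Per3, the third Period gene, measured 11.7, 12.8 and 16.2 CPM in model and 11.8, 15.3 and 9.95 CPM in DMDD liposome. The highest library was model replicate 3 and the lowest DMDD liposome replicate 3, with wide overlap. Its log2 fold change was -0.14 ± 0.22 (adjusted p = 0.894). The gene lies within Camta1 on the same strand in the GENCODE annotation, so reads from unspliced Camta1 RNA cannot be told apart from its own where they fall in its exons.

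**Figure D1:**
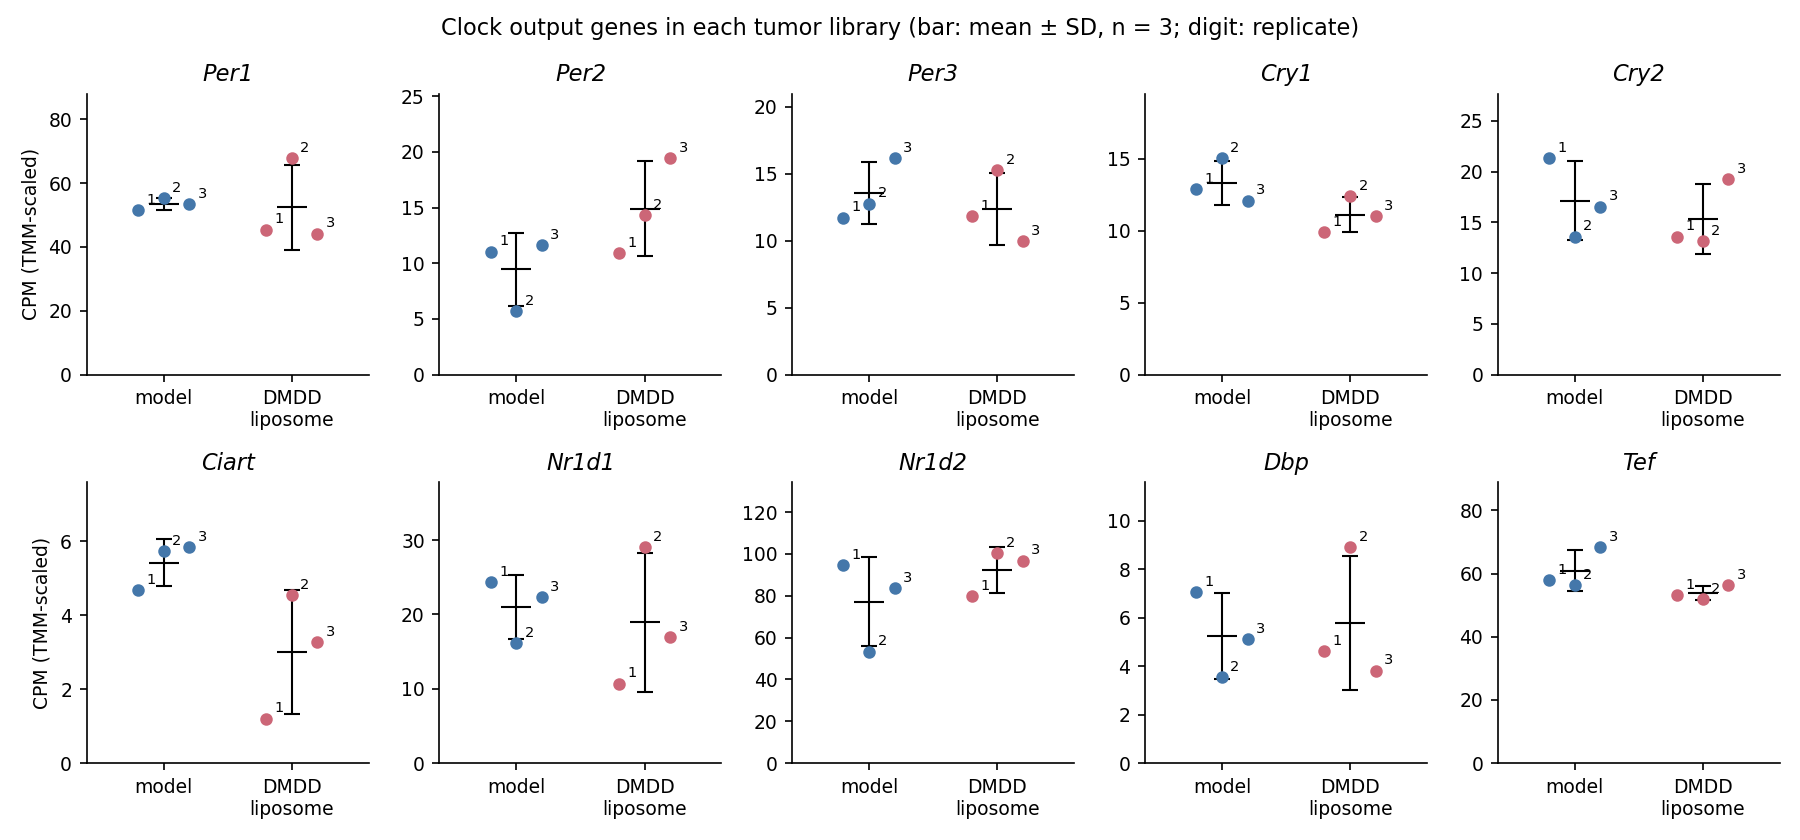
CPM (TMM-scaled, linear axes from 0) of the 10 clock output genes in each library, with blue points for model, red points for DMDD liposome, the replicate number beside each point and a black bar for the mean ± SD (n = 3). The groups overlap for 8 of the 10 genes, and DMDD liposome replicate 2 is the highest library for Per1, Nr1d1, Nr1d2 and Dbp.

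Cry1 and Cry2 encode the cryptochromes, which with the PER proteins form the inhibitory complex. Cry1 measured 12.9, 15.02 and 12.1 CPM in model and 9.92, 12.4 and 11.0 CPM in DMDD liposome. Its groups overlapped only through DMDD liposome replicate 2, which lay above model replicate 3. The log2 fold change of Cry1 was -0.26 ± 0.18 (adjusted p = 0.753). Cry2 measured 21.3, 13.6 and 16.5 CPM in model and 13.6, 13.1 and 19.3 CPM in DMDD liposome. Both groups of Cry2 held a library at 13.6 CPM and their ranges overlapped widely, and its log2 fold change was -0.16 ± 0.23 (adjusted p = 0.881). Cry2 overlaps D930015M05Rik on the opposite strand over 23417 bases in the GENCODE annotation. Without a stated strand setting, reads from the shared bases cannot be told apart.

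Ciart, which encodes another repressor of CLOCK and BMAL1, had the largest difference of the 10. In model replicates 1 to 3 Ciart was covered by 61, 89 and 89 counts (4.68, 5.74 and 5.84 CPM). The DMDD liposome tumors gave 17, 60 and 48 counts (1.20, 4.53 and 3.27 CPM). All 3 DMDD liposome libraries were below all 3 model libraries, but 60 counts in DMDD liposome replicate 2 (exact Poisson 95% interval 45.8 to 77.2) and 61 in model replicate 1 (46.7 to 78.4) differed by less than counting error. DMDD liposome replicate 1 stood apart, at 17 counts (9.90 to 27.2). These intervals cover counting error only. Ciart's log2 fold change was -0.85 ± 0.45 (adjusted p = 0.676), with a 95% interval from -1.90 to 0.19, and it was -0.48 without DMDD liposome replicate 1 and -1.28 without DMDD liposome replicate 2. With limma-voom and sample quality weights it was -1.36 (adjusted p = 0.360). An antisense gene, C920021L13Rik, overlaps the whole of Ciart in the GENCODE annotation, and without a stated strand setting their reads cannot be told apart.

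Tef was the other gene whose groups did not overlap, at 58.0, 56.4 and 68.4 CPM in model and 53.1, 52.0 and 56.2 CPM in DMDD liposome. The lowest model library and the highest DMDD liposome library of Tef were thus nearly level. Its log2 fold change was -0.18 ± 0.11 (adjusted p = 0.732), with a 95% interval from -0.44 to 0.08, the narrowest of the 10. Such a separation was seen for 2 of the 10 genes, both lower in DMDD liposome, and for 12.9% of all tested genes (7.21% higher and 5.66% lower). An antisense gene, Gm17597, overlaps 193 bases of Tef in the GENCODE annotation.

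Nr1d1 and Nr1d2 encode REV-ERB alpha and REV-ERB beta, nuclear receptors that repress Arntl and many metabolic genes. Nr1d1 measured 24.4, 16.1 and 22.3 CPM in model and 10.7, 29.1 and 17.0 CPM in DMDD liposome. The DMDD liposome libraries of Nr1d1 thus held both the lowest and the highest value of the 6, 2.72-fold apart. The log2 fold change was -0.15 ± 0.35 (adjusted p = 0.929) and its 95% interval ran from -0.96 to 0.67. Nr1d1 overlaps the 3′ end of Thra on the opposite strand in the GENCODE annotation, and Thra averaged 54.0 ± 9.38 CPM (SD, n = 3) over the model libraries and 55.4 ± 4.45 CPM over those of DMDD liposome.

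Nr1d2 measured 94.5, 53.3 and 83.6 CPM in model and 79.7, 100.4 and 96.8 CPM in DMDD liposome. Model replicate 2 was the lowest and the other 5 libraries lay within 79.7 to 100.4 CPM. Its log2 fold change was 0.26 ± 0.21 (adjusted p = 0.796), and without model replicate 2 it was 0.04. Model replicate 2 was also the lowest library for Per2 and Dbp.

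Dbp, a direct target of the activators whose protein drives D-box genes, measured 7.05, 3.55 and 5.12 CPM in model and 4.60, 8.91 and 3.82 CPM in DMDD liposome, from 92, 55 and 78 counts against 65, 118 and 56. The lowest was model replicate 2 and the highest DMDD liposome replicate 2, 2.51-fold apart, and either group spanned most of that range. Its log2 fold change was 0.14 ± 0.40 (adjusted p = 0.945). Leaving out model replicate 2 turned it to -0.08, and leaving out DMDD liposome replicate 2 to -0.32. Dbp overlaps Sphk2 on the opposite strand in the GENCODE annotation, and Sphk2 averaged 29.5 ± 3.57 CPM over the model libraries and 31.8 ± 1.76 CPM over those of DMDD liposome.

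**Figure D2:**
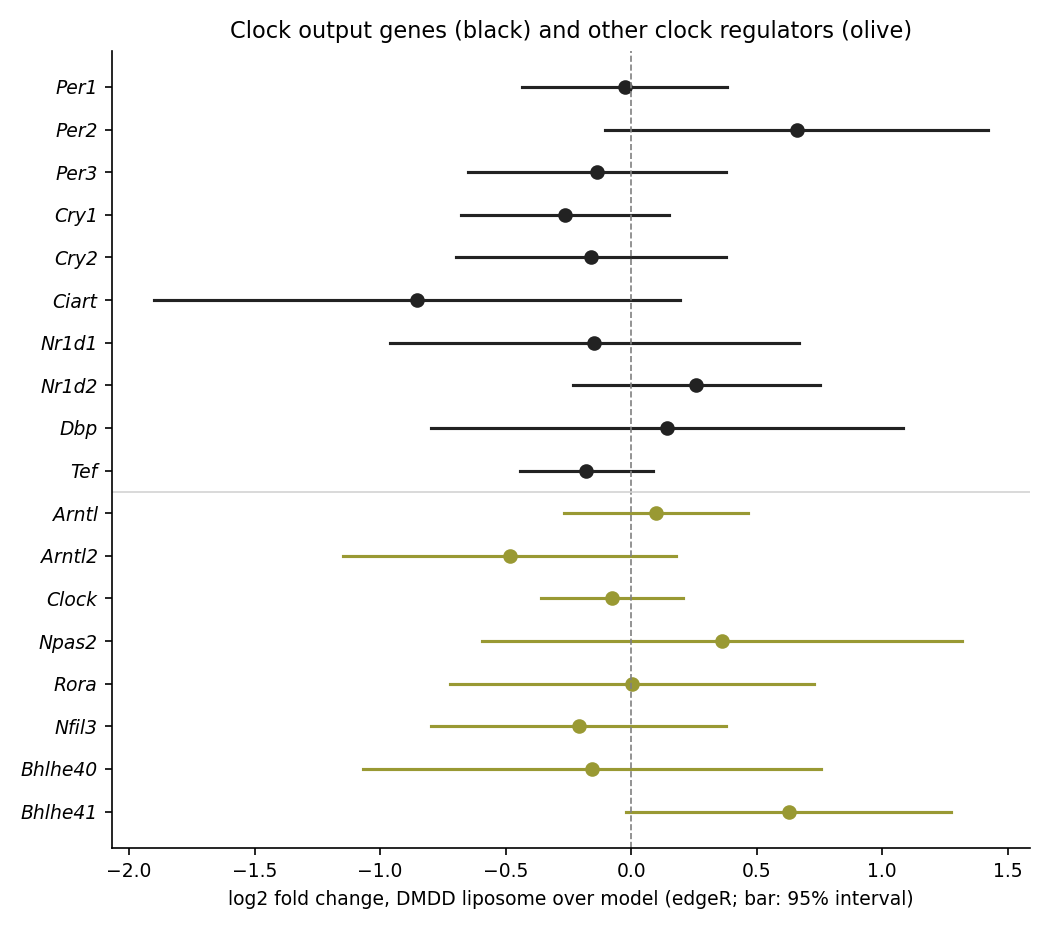
Log2 fold change (DMDD liposome over model, edgeR) with its 95% interval for the 10 clock output genes (black) and other activators and feedback transcription factors of the clock (olive). Every interval includes 0, from Tef, the narrowest of the black bars, to Ciart, the widest of them.

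Levels of different genes were compared in FPKM as deposited, which corrects for gene length. Nr1d2 was the highest of the 10 at 18.1 ± 3.67 FPKM (SD over the 6 libraries), followed by Tef at 12.2 ± 1.10, Per1 at 9.39 ± 1.41 and Nr1d1 at 7.29 ± 2.34 FPKM. Cry1 (4.03 ± 0.554 FPKM), Cry2 (3.74 ± 0.789 FPKM) and Dbp (2.99 ± 1.11 FPKM) came next. Per3, Ciart and Per2 were lowest, at 2.15 ± 0.358, 2.13 ± 0.868 and 2.08 ± 0.780 FPKM. Per1 exceeded Nr1d1, and Nr1d1 exceeded Cry1, in 6 of 6 libraries. Neighbours from Cry1 downward did not keep the same order in every library: Per3 exceeded Ciart in 2 of 6 libraries, Ciart exceeded Per2 in 3 of 6, and Cry1 exceeded Cry2 in 4 of 6. Cry2 exceeded Dbp, and Dbp exceeded Per3, in 5 of 6, by means of 0.749 and 0.838 FPKM. Both differences were less than the SD of Dbp, while 0.838 FPKM was more than the SD of Per3.

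The spread between libraries differed widely among the 10 genes. The SD of log2 CPM (prior count 2) over the 6 libraries was 0.14 for Tef, 0.20 for Cry1 and 0.22 for Per1, and 0.50 for Dbp, 0.51 for Nr1d1, 0.58 for Per2 and 0.81 for Ciart. The median over the 10 was 0.32 beside 0.22 over all tested genes, and 8 of the 10 lay above that median. Within groups the median SD was 0.32 for the 10 and 0.21 for all tested genes. Low genes have a larger spread from counting alone. The biological coefficient of variation that edgeR fitted, which leaves out counting error, ran from 12.8% for Tef to 30.9% for Nr1d1, 35.6% for Dbp and 38.2% for Ciart, with a median of 21.7% beside 17.2% over all tested genes. The fitted dispersion lay above the trend for genes of the same level for 5 of the 10 (Per2, Dbp, Nr1d1, Nr1d2 and Ciart), and for 26.2% of all tested genes. The 5 that lay below it were Per1, Per3, Tef, Cry1 and Cry2. These are descriptions with no test.

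**Figure D3:**
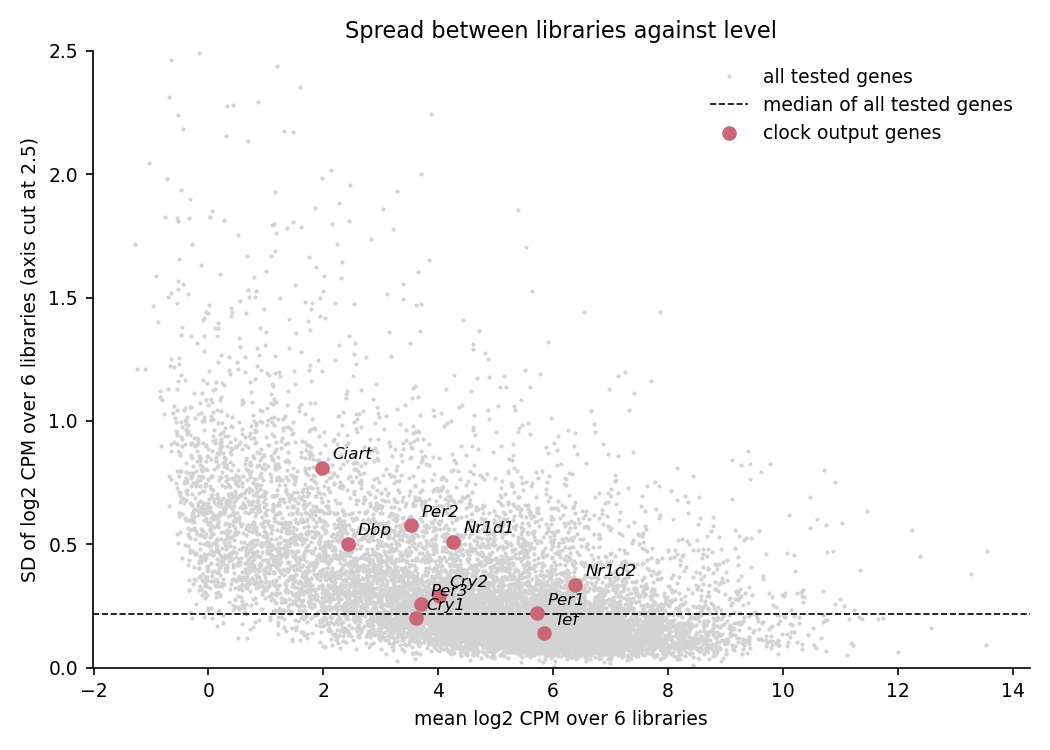
SD of log2 CPM over the 6 libraries against mean log2 CPM for all tested genes (grey), with the clock output genes in red and the median SD of all tested genes (0.22) as a dashed line, the vertical axis being cut at 2.5. Ciart, Per2, Nr1d1 and Dbp sit well above the line and Tef below it.

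The genes did not order the libraries in the same way, but DMDD liposome replicate 1 was on the low side for each of them. There 10 of the 10 genes lay below their own mean over the 6 libraries, beside 49.0% of all tested genes. The median of the 10 was -0.19 on the log2 scale (range -1.54 to -0.06). The count was also 10 with the authors' normalized values, but these are the same counts under other size factors and no separate check. In the other 5 libraries 2 to 7 of the 10 lay below their mean. This pattern was noticed in the data and was not tested. DMDD liposome replicate 2 was the highest library for 4 genes (Per1, Nr1d1, Nr1d2 and Dbp) and the lowest for 2 (Cry2 and Tef). Model replicate 3 was the highest for 3 (Per3, Ciart and Tef). DMDD liposome replicate 1 was the lowest for 3 (Nr1d1, Ciart and Cry1), model replicate 2 the lowest for 3 (Per2, Nr1d2 and Dbp) and DMDD liposome replicate 3 the lowest for 2 (Per1 and Per3). On the scale of log2 CPM minus the gene's mean, Dbp and Nr1d1 stood at 0.76 and 0.61 in DMDD liposome replicate 2, and Ciart at -1.54 in DMDD liposome replicate 1. Over the 45 pairs of the 10 genes the median Pearson r across the 6 libraries was 0.25, beside a median of 0.00 over all pairs of tested genes. The highest was 0.91, for Per2 with Nr1d2, and 6 of 45 pairs (13.3%) were above 0.7 and 0 below -0.7, where 7.70% and 7.56% of all pairs of tested genes were. The median absolute r was 0.40 for the 45 pairs and 0.38 for all pairs, nearly level. These r values rest on 6 shared libraries of 2 groups and are given as descriptions.

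**Figure D4:**
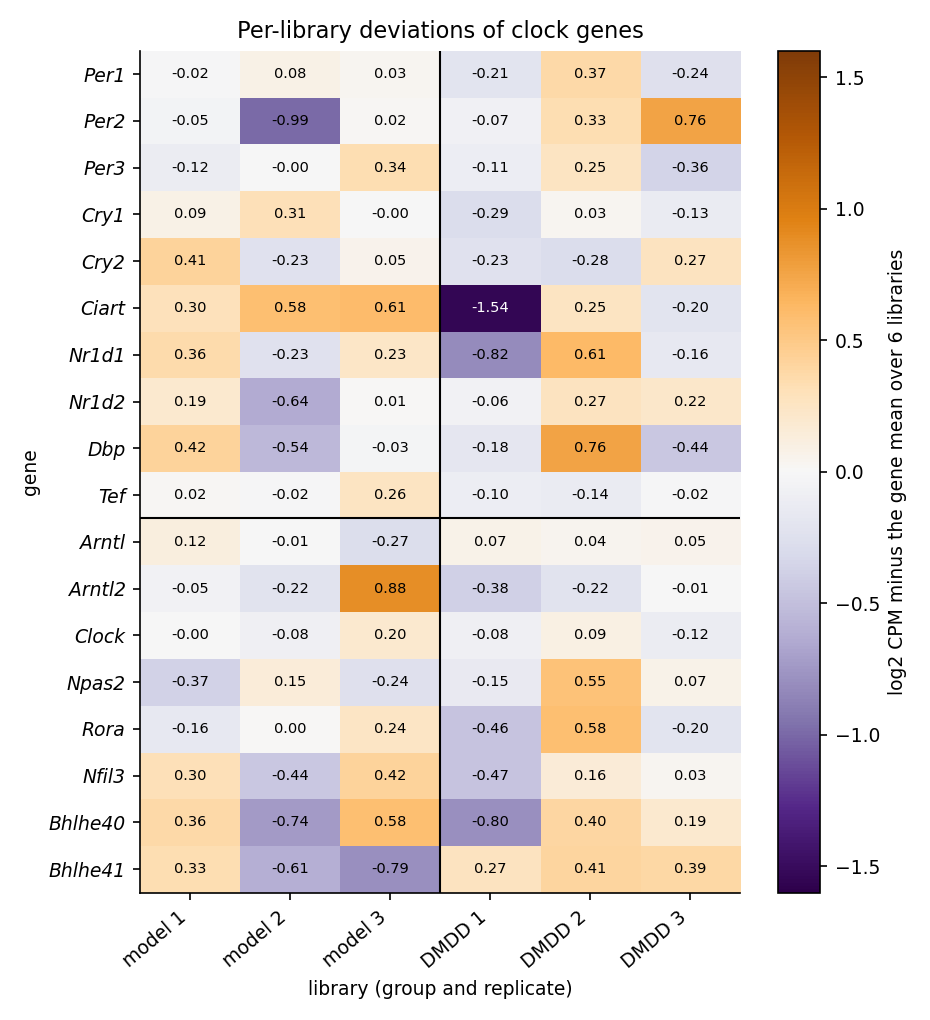
Log2 CPM minus the gene's mean over the 6 libraries (color, and printed in each cell) for the 10 clock output genes (above the horizontal line) and other clock transcription factors (below it), by library, with model to the left of the vertical line and DMDD liposome (DMDD) to its right. Arntl and Clock vary little, Ciart is at -1.54 in DMDD liposome replicate 1, and all 10 upper genes are below 0 in that library.

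The tumors were mixtures of cells, and in bulk RNA fewer cells of a type and less RNA per cell cannot be told apart. All 6 epithelial tumor markers (Epcam, Krt8, Krt18, Krt19, Cdh1 and Cldn7) were measured, summing to 3039 to 5415 CPM in model and 2740 to 3537 CPM in DMDD liposome. DMDD liposome replicate 2, the highest library for 4 clock genes, was also the highest for the 5 fibroblast markers, at a sum of 7634 CPM against 2875 to 5129 CPM in the other 5 libraries. It was the highest too for the 5 fat cell markers (79.8 CPM against 10.2 to 33.0 CPM) and the 6 endothelial markers (325 CPM against 149 to 290 CPM). The same library was the lowest for the epithelial tumor (2740 CPM), T cell (12.2 CPM) and skeletal muscle (10.7 CPM) markers. DMDD liposome replicate 3, the highest for Per2, had the most skeletal muscle RNA, at a sum of 228 CPM over 6 markers against 10.7 to 99.7 CPM elsewhere. Model replicate 2, the lowest for Per2, Nr1d2 and Dbp, had the highest sum for the 6 skin keratinocyte markers, at 520 CPM against 63.0 to 349 CPM. It was also the highest for the epithelial tumor markers (5415 CPM) and the lowest for the endothelial markers (149 CPM). Its fibroblast sum, 5129 CPM, was the next highest after that of DMDD liposome replicate 2. DMDD liposome replicate 1, the lowest for Ciart, Nr1d1 and Cry1, was the highest for the 5 measured T cell markers of 6 listed, at 66.7 CPM against 12.2 to 52.5 CPM. No marker of these lists was at 0 in every library, though Adipoq, Plin1, Cidec and Lep of the fat cell list, Krt1, Krt5, Lor and Flg of the skin list and Myh4 of the muscle list were at 0 in at least 1. Only 2 of the 5 fat cell markers and 2 of the 6 skin keratinocyte markers passed the filter on low counts. The 6 macrophage markers summed to 957 to 2230 CPM in model and 2266 to 3214 CPM in DMDD liposome, where replicate 1 was the highest, and the 5 neutrophil markers to 188 to 239 CPM in model and 96.4 to 170 CPM in DMDD liposome. Both sums separated the groups, while the sums of the other marker lists overlapped. Of all tested genes, 12.9% separated the groups. The part of these cells in the clock gene values was not tested.

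Of the activators, Arntl and Clock varied less between libraries than most of the 10 genes, and Arntl2 and Npas2 did not. Arntl measured 16.9, 15.5 and 12.9 CPM in model and 16.4, 16.0 and 16.15 CPM in DMDD liposome, a 1.31-fold range over the 6 libraries, with a log2 fold change of 0.10 ± 0.16 (adjusted p = 0.892). Clock had a 1.25-fold range and a log2 fold change of -0.08 ± 0.12. Arntl2, a paralog of Arntl, was at 138 CPM in model replicate 3 and between 57.3 and 73.9 CPM in the other 5 libraries, a 2.40-fold range. Npas2, a paralog of Clock, had 10 to 21 counts per library and a 2.07-fold range. Of these 4 activators 0 passed the adjusted test, and 2 had positive and 2 negative fold changes. The ranges of the 10 clock genes ran from 1.32-fold for Tef, level with Arntl, and 1.52-fold for Cry1 to 2.72-fold for Nr1d1, 3.42-fold for Per2 and 4.85-fold for Ciart.

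Among 7 feedback transcription factors, 5 were tested and 0 passed. Bhlhe41 (DEC2), a repressor that competes for E-boxes, was at 38.6 and 34.0 CPM in model replicates 2 and 3, and between 71.1 and 78.0 CPM in the DMDD liposome libraries. Model replicate 1, at 74.0 CPM, lay inside the DMDD liposome range, and the log2 fold change was 0.63 ± 0.28 (adjusted p = 0.644). Without model replicate 1 Bhlhe41 stood at 1.05 ± 0.12 and passed edgeR's adjusted test (adjusted p = 0.0298), in a fit that called 112 genes in all. It fell to 0.47 without model replicate 2 and to 0.41 without model replicate 3 (adjusted p = 0.851 and 0.927). Its paralog Bhlhe40 (DEC1) ranged from 133 to 344 CPM with no separation, at -0.16 ± 0.39. Nfil3, which binds D-boxes as a repressor, stood at -0.21 ± 0.25, and Rora, which encodes an activator acting through the ROR element, at 0.00 ± 0.31. With 1 library left out Bhlhe40 ran from -0.47 to 0.13, Nfil3 from -0.44 to -0.04 and Rora from -0.38 to 0.21. Hlf, the third PAR bZIP gene, had 2 to 11 counts and Rorb 0 to 3, and neither was tested.

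Of 10 genes for kinases, ubiquitin ligases and proteases that act on clock proteins, 9 were tested and 0 passed, with 3 positive and 6 negative fold changes. The deubiquitinase gene Usp2 stood at 0.27 ± 0.26 and the ligase gene Btrc at -0.12 ± 0.13, and they ran from 0.09 to 0.43 and from -0.20 to -0.05 with 1 library left out. Of 7 clock-controlled genes of many tissues, 6 were tested and 0 passed. Tsc22d3, which encodes the glucocorticoid-induced leucine zipper GILZ, stood at 0.37 ± 0.20, Tspan4 at -0.21 ± 0.14 and Usp2, which is on both lists, as above. With 1 library left out Tsc22d3 ran from 0.22 to 0.54 and Tspan4 from -0.31 to -0.08.

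Signals from outside the loop also set Per genes: glucocorticoids and growth stimuli induce Per1, and heat shock factors act on Per2. Of 11 glucocorticoid targets 10 were tested and 0 passed, with 3 positive and 7 negative fold changes. Klf9, a glucocorticoid target that is itself clock-controlled, measured 29.1, 9.87 and 10.9 CPM in model and 28.9, 40.6 and 32.3 CPM in DMDD liposome, with a log2 fold change of 1.03 ± 0.41 (adjusted p = 0.630). As for Bhlhe41, model replicate 1 lay among the DMDD liposome libraries, and without it Klf9 stood at 1.71 ± 0.19 (adjusted p = 0.0298 by edgeR). That fit called 112 genes in all, and for both genes it left out the model library that overlapped the other group. Klf9 stood at 0.76 without model replicate 2 and 0.79 without model replicate 3 (adjusted p = 0.839 and 0.927). Ddit4, induced by stress and glucocorticoids, stood at -0.53 ± 0.26, and at -0.26 without model replicate 1.

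Of 11 immediate early genes, 10 were in the table and tested and 0 passed. Nr4a1, an orphan nuclear receptor gene, stood at 1.11 ± 0.46 (adjusted p = 0.641), Atf3 at -0.48 ± 0.29 and Jun at -0.43 ± 0.38. Each moved with 1 library: Nr4a1 was at 0.34 without DMDD liposome replicate 2, and without DMDD liposome replicate 1 Atf3 was at -0.23 and Jun at -0.07. Fos, Fosb, Egr1, Ier2 and Ier3, named after their values were seen, were lowest in DMDD liposome replicate 1 and highest in replicate 2. The tested genes Rora, Csnk1a1, Dusp1, Sgk1, Cebpd, Rbm3 and Hspa1b of the other lists had the same extremes. Of the 10 clock genes only Nr1d1 had them. The other tested immediate early genes did not have both: Jun, Junb and Atf3 were highest in model replicate 1. Egr3 was lowest in model replicate 1 and Nr4a1 in model replicate 2. The share of all tested genes with both extremes was not counted. Fos measured 226, 84.6 and 76.5 CPM in model and 20.7, 346 and 60.4 CPM in DMDD liposome. The median SD of log2 CPM over the 6 libraries was 0.69 for the immediate early genes, above the 0.32 of the clock genes. Of 8 temperature-responsive genes 0 passed. Hsph1, a heat shock protein gene, stood at 0.58 ± 0.21 (adjusted p = 0.626), Hsp90aa1 at 0.21 ± 0.12 and Hspa1a at 0.66 ± 0.52. Hspa1a was at 12.4 CPM in DMDD liposome replicate 2 and between 3.10 and 6.52 CPM in the other 5 libraries, and without that library its log2 fold change was -0.08. The part of handling, temperature or sampling hour in any clock gene value was not tested.

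Leaving out each library in turn gave 0 of the 10 clock genes an adjusted p under 0.05, and the smallest was 0.367, for Per2 without model replicate 1. Per2 and Nr1d2 stayed positive, and Per3, Cry1, Ciart and Tef negative, in the 6 fits. Per1, Cry2, Nr1d1 and Dbp changed sign in at least 1 of them. For Per1, Nr1d1 and Dbp the lowest value came without DMDD liposome replicate 2, at -0.26, -0.60 and -0.32.

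**Figure D5:**
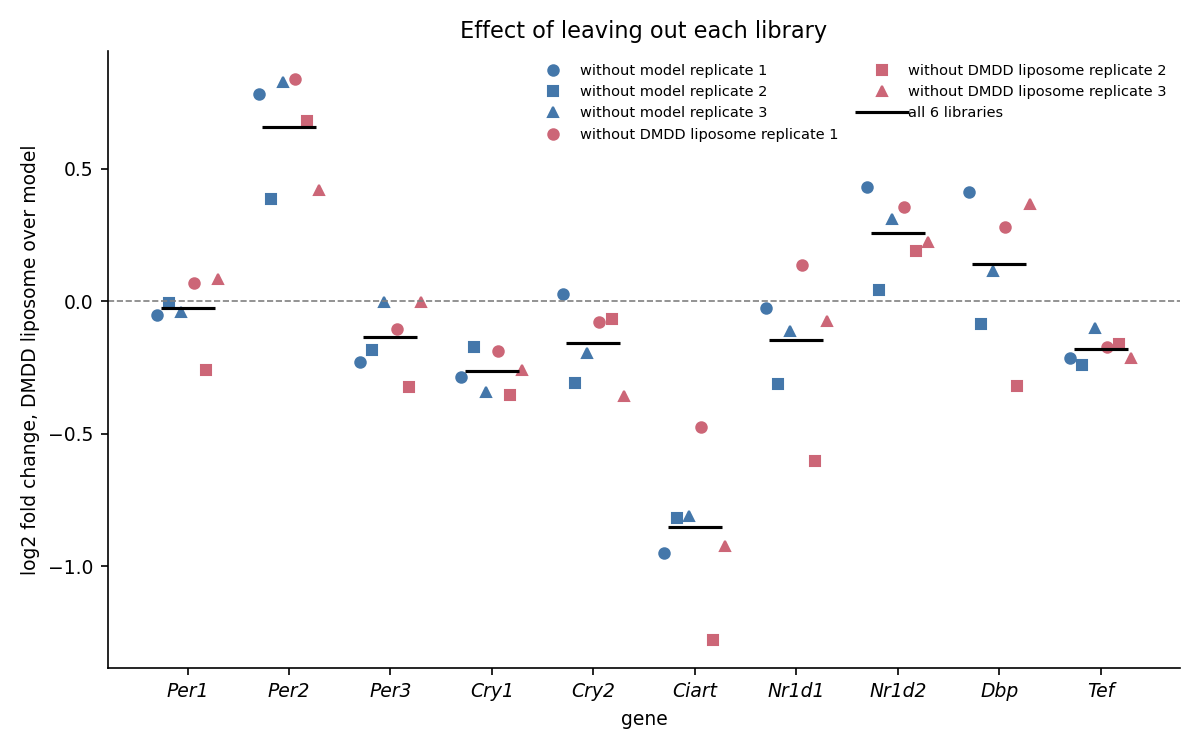
Log2 fold change (DMDD liposome over model, edgeR) of each clock output gene with all 6 libraries (black line) and without each library in turn (blue for a model library left out, red for a DMDD liposome library, circle, square and triangle for replicates 1, 2 and 3). Ciart moves between -1.28 and -0.48, and the points of Per1, Cry2, Nr1d1 and Dbp fall on both sides of 0.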

How the data were processed

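Per the labels' protocols, tumor RNA was taken up in Trizol and turned into libraries with an NEBNext Ultra kit. One table covered all 6 samples, grouped by their descriptions, and 0 of its columns of values were left unused for want of a sample. The deposited read counts per gene are raw, per the file headers. The authors also deposited a normalized signal (count over a size factor per sample), FPKM, and log2 fold changes (model over DMDD liposome) with p-values from their comparison, and the submitters' processing notes name DESeq2 and build mm9. The sources used here do not give aligner, counter, annotation or strand setting. Reference sequences were of another build and served for promoter letters and overlapping gene names only.

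The test was edgeR 4.0.16 under R 4.3.3, run on the counts (filterByExpr with minimum count 10 and minimum total 15, TMM, two-sided quasi-likelihood test, Benjamini-Hochberg over 12891 genes, threshold 0.05). Standard errors came from the F statistic, and 95% intervals used its degrees of freedom. Libraries held 13037500 to 15616840 counts, and 3 counts stood for 0.193 to 0.230 CPM. The genes and lists were chosen with earlier results of these data known. Named were all 10 clock genes, all activators and feedback factors, and the 3 genes of smallest unadjusted p in each other list, except that some genes so selected are not reported here. Alternatives were DESeq2 size factors, no filter, DESeq2 1.42.0, a threshold of 0.01, a replicate block, limma-voom (limma 3.58.1) with quality weights, a prior count of 0.5, the authors' normalized values and leaving out each library. The scripts were tested on simulated data.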

Additional observations from a re-analysis of the deposited data

How the results depend on the processing

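None of the 10 clock genes passed an adjusted threshold of 0.05 under any of the 11 refits run. Over all genes, edgeR called 0, also with DESeq2 size factors, with no filter on low counts, at a threshold of 0.01 and with limma-voom, while DESeq2 called 59. With 1 library left out edgeR called 0 to 112 genes, 112 being without model replicate 1. Of 110 refitted fold changes of clock genes, 103 kept their direction and 7 did not. Dbp went from 0.14 to -0.037 with limma-voom, which also moved Ciart from -0.85 to -1.36, Nr1d1 from -0.15 to -0.47, Per1 from -0.03 to -0.16, Per3 from -0.14 to -0.26 and Cry2 from -0.16 to -0.10, and the cause was not tested. With 1 library left out, log2 fold changes ran from -0.259 to 0.083 for Per1, -0.32 to 0.41 for Dbp, -0.60 to 0.14 for Nr1d1 and -0.359 to 0.026 for Cry2. The median SD within groups (0.32) ran from 0.29 to 0.36. The group ratios from the authors' normalized values moved by less than the spread between replicates.

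With the replicate number as a block edgeR again called 0 genes and changed no direction among the 10 clock genes, while Fos went from 0.14 to -0.49 and Rora from 0.00 to -0.05. Same-numbered libraries deviated together weakly (r of 0.088, 0.114 and 0.121 over genes), so the numbers were not taken as pairs, though each library correlated best with its own number. Depth limits Ciart and Dbp most, at 17 to 118 counts per library.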

Other observations

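Among 10615 tested genes with a mean of at least 5 CPM, the 5 whose log2 CPM followed Dbp most closely over the 6 libraries were Lima1 (Pearson r = 0.98), Steap2 (0.98), Eef1akmt2 (0.98), Ifrd1 (0.98) and Bnip2 (0.97). None of them is a gene of the clock lists. The 5 that ran most opposite were Dync2li1 (-0.99), Dguok (-0.99), Hps6 (-0.98), Armc7 (-0.98) and Egln2 (-0.98). With only 6 libraries, 79 genes had an r above 0.9, so the ranking is a description of these libraries. Within the clock genes, Dbp had its highest r with Nr1d1 (0.74), then Per1 (0.66), Nr1d2 (0.64) and Per3 (0.47), and stood near 0 with Cry1 (0.01) and Cry2 (0.01). With Arntl, which peaks at the opposite time of day in many tissues, it was 0.17.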
